A study of Homo sapiens with 6 samples.

Results

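GATA1, GATA2, KLF1, TAL1, LMO2, LDB1, NFE2, GFI1B, RUNX1 and FLI1 are transcription factors and cofactors of the red cell and platelet lineages. These 10 genes were taken by name, together with every probe set that the platform annotation gives to them, and they held 36 of the 54613 probe sets of the array that are not controls. Of these, 23 probe sets were annotated to 1 gene alone and covered 9 of the factors. All 13 probe sets of RUNX1 carried 2 further gene names, LOC101928269 and LOC100506403, and are therefore given as shared probe sets. The cells were K562, an established human line from a chronic myeloid leukaemia that has kept features of erythroid and megakaryocytic cells. They were nucleofected with an siRNA that the labels call RNAi8 or with scrambled RNA, at up to 200 nM, and after 24 hours received all-trans retinoic acid (ATRA), a ligand of retinoic acid receptors, or its solvent DMSO. The series is about PRAME, a repressor of retinoic acid receptor signalling. Each of 3 independent experiments gave 1 siRNA array and 1 scrambled RNA array. ATRA was given in experiments 1 and 3, DMSO in experiment 2. All cells came from 1 line, all were nucleofected, and no untransfected or untreated sample was analysed here.

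GATA1 and GATA2 are zinc finger proteins that bind GATA motifs. GATA2 acts in progenitors and GATA1 takes over its sites as red cells and megakaryocytes mature. TAL1 binds E-boxes with E proteins and is joined to GATA1 through the bridging proteins LMO2 and LDB1. KLF1 binds CACCC boxes of globin and other red cell genes, GFI1B represses transcription downstream of GATA1, NFE2 pairs with small MAF proteins in globin control and platelet release, and RUNX1 and FLI1 drive megakaryocyte genes.

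Promoter sequences of the factors were read from the RefSeq table of GRCh38.p14, which covers 250 bases before and 50 bases after a start site. It held 10 promoters of 7 factors (GATA1, GATA2, KLF1, TAL1, LDB1, GFI1B and RUNX1), and LMO2, NFE2 and FLI1 were not matched. A GATA motif (AGATAA or AGATAG or TGATAA or TGATAG, on either strand, overlapping matches joined) lay in 4 of the 10, belonging to KLF1, TAL1 and GFI1B, against 25% of all 35116 promoters of that length. These 4 are printed because GATA1, which binds the motif, was among the factors that differed between the experiments. The promoter of GATA1 itself held no GATA motif and is printed with its CACCC boxes (CCNCNCCC on either strand), the motif that KLF1 binds. Each runs 5′ to 3′ on the strand of the gene. Capitals mark the GATA motif in the first 4 and the CACCC box in the last.
KLF1, chr19:12887152-12887451, minus strand: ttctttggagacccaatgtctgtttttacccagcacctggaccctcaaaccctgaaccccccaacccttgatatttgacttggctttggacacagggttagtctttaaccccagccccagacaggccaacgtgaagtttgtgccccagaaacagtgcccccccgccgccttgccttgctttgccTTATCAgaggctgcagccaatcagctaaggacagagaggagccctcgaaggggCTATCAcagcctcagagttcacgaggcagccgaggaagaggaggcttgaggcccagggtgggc
TAL1, chr1:47232286-47232585, minus strand: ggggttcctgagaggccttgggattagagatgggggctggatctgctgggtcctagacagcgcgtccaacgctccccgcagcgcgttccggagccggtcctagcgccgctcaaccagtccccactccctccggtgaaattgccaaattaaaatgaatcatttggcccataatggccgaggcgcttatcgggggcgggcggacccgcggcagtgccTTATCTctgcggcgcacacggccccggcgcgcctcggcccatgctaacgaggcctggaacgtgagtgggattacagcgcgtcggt
GFI1B, chr9:132945281-132945580, plus strand: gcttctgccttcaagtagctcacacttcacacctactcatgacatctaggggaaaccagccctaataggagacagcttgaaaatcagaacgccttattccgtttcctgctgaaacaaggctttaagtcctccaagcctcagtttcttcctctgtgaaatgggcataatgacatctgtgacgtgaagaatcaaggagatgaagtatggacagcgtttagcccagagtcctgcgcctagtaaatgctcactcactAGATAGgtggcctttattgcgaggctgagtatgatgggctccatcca
GFI1B, chr9:132978444-132978743, plus strand: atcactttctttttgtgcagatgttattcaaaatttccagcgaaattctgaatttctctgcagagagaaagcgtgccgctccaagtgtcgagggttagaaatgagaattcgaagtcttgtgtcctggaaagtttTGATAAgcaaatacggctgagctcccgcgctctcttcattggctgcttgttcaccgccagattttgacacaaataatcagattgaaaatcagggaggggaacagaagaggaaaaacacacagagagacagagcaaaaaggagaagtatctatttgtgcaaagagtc
GATA1, chrX:48786340-48786639, plus strand: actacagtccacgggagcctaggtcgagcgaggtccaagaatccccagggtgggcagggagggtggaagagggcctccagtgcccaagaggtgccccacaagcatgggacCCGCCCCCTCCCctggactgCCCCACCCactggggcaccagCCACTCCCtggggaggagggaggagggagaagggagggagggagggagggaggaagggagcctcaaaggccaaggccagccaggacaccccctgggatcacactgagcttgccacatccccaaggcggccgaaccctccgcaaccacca
The KLF1 promoter held 2 GATA motifs, at positions 185 and 238 counted from its first base, and 5.97% of all promoters held 2 or more. The TAL1 motif lay at position 216 and those of GFI1B at positions 254 and 135. CACCC boxes lay in 7 of the 10 promoters against 56.2% of all, and in the GATA1 promoter at positions 111, 131 and 152. E-boxes (CANNTG) were found in 5 of the 10, against 68.7% of all promoters. ETS motifs (CCGGAA or CAGGAA or AGGAAG), of the kind that FLI1 binds, were found in 8, against 55.3%. RUNX motifs (TGTGGT or TGCGGT) were found in 1 of the 10, against 19.6%. That was the other TAL1 promoter, which held 4. Half-sites of the retinoic acid receptor (AGGTCA or AGTTCA or GGGTCA or GGTTCA) were found in 3, against 38.6%, namely both promoters of GATA2 and that of KLF1. A motif is a match of letters, and binding was not measured.

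Values are log2 expression after RMA, so that a difference of 1 is a doubling of signal, and array medians ran from 5.96 to 6.02. A probe set below the median of all probe sets (5.99) was not shown to be above background and is called dim. Experiment 3 stood apart. Across probe sets, r between its arrays and the other 4 was 0.979 to 0.982, against 0.996 to 0.998 among those 4. On its siRNA and scrambled arrays the actin 3′ probe set exceeded the 5′ probe set by 2.98 and 3.36 log2 units, against 0.63 to 0.92 elsewhere, and the same gap of GAPDH was 1.20 and 0.74 there and 0.03 to 0.08 elsewhere. PRAME was lower with the siRNA in each experiment, by 0.78 log2 units on average. Of the erythroid markers, 5 of 12 were measured by probe sets of 1 gene, and all 5 were above the median, among them HBZ at 12.03 and HBE1 at 11.42, the embryonic globins of this line. The mean over these 5 ran only from 10.24 to 10.37 across arrays. Of the mature myeloid markers 2 of 10 were above the median (array means 5.58 to 5.64), of the T and NK markers 3 of 8 (5.93 to 6.21), of the B cell markers 3 of 5, of the stromal markers 3 of 6 and of the epithelial markers 4 of 6. In such bulk RNA, fewer cells of a type and less RNA per cell cannot be told apart.

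Of the 23 probe sets of 1 gene, 17 had a mean at or above the median, and they covered every factor but FLI1. GATA1 was measured by 2 probe sets. The brighter, 1555590_a_at, read 8.93, 9.05 and 8.41 on the siRNA arrays of experiments 1, 2 and 3 and 8.96, 9.16 and 8.67 on the scrambled arrays. The other, 210446_at, read 9.0, 9.19 and 7.91 with the siRNA and 8.98, 9.15 and 7.90 with scrambled RNA. On both, the DMSO arrays were highest and the arrays of experiment 3 lowest, with no overlap between experiments. GATA2 read 8.89, 9.19 and 9.01 on the siRNA arrays of its brightest probe set (209710_at) and 8.87, 9.12 and 9.12 on the scrambled arrays. Experiment 1 was lowest there. The DMSO arrays of experiment 2 lay above those of experiment 3, but the lower DMSO array and the scrambled array of experiment 3 differed by less than 0.01.

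KLF1, with 1 probe set (210504_at), read 8.84, 9.08 and 9.09 with the siRNA and 8.75, 8.95 and 8.78 with scrambled RNA. Its siRNA array was the higher in each experiment, and the experiments overlapped. TAL1 read 9.49, 9.55 and 9.96 with the siRNA and 9.40, 9.59 and 9.98 with scrambled RNA (206283_s_at), with experiment 3 above the others. Its 3 other probe sets read between 6.06 and 7.59 and did not show that order.

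LMO2, the bridge between TAL1 and GATA1, read 10.15, 10.52 and 10.06 with the siRNA and 10.03, 10.56 and 10.22 with scrambled RNA (204249_s_at). Both DMSO arrays lay above all 4 ATRA arrays. LDB1, the partner that LMO2 binds, read 8.09, 8.16 and 8.05 with the siRNA and 8.10, 8.13 and 8.16 with scrambled RNA (35160_at), a range in which the experiments overlapped.

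NFE2 read 8.93, 8.79 and 9.46 with the siRNA and 8.85, 8.76 and 9.41 with scrambled RNA (209930_s_at), with experiment 3 highest and the DMSO experiment lowest. GFI1B read 8.20, 8.42 and 8.09 with the siRNA and 8.17, 8.50 and 8.12 with scrambled RNA (237403_at). As for LMO2, its DMSO arrays lay above the 4 ATRA arrays. All 6 probe sets of FLI1 were dim on every array, between 2.89 and 5.87, so that a level of FLI1 transcript above background was not shown. Of the 13 probe sets shared with RUNX1, 6 had a mean above the median. The brightest, 209360_s_at, read 8.41, 8.19 and 8.84 with the siRNA and 8.36, 8.25 and 8.89 with scrambled RNA, with experiment 3 highest.

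**Figure D1:**
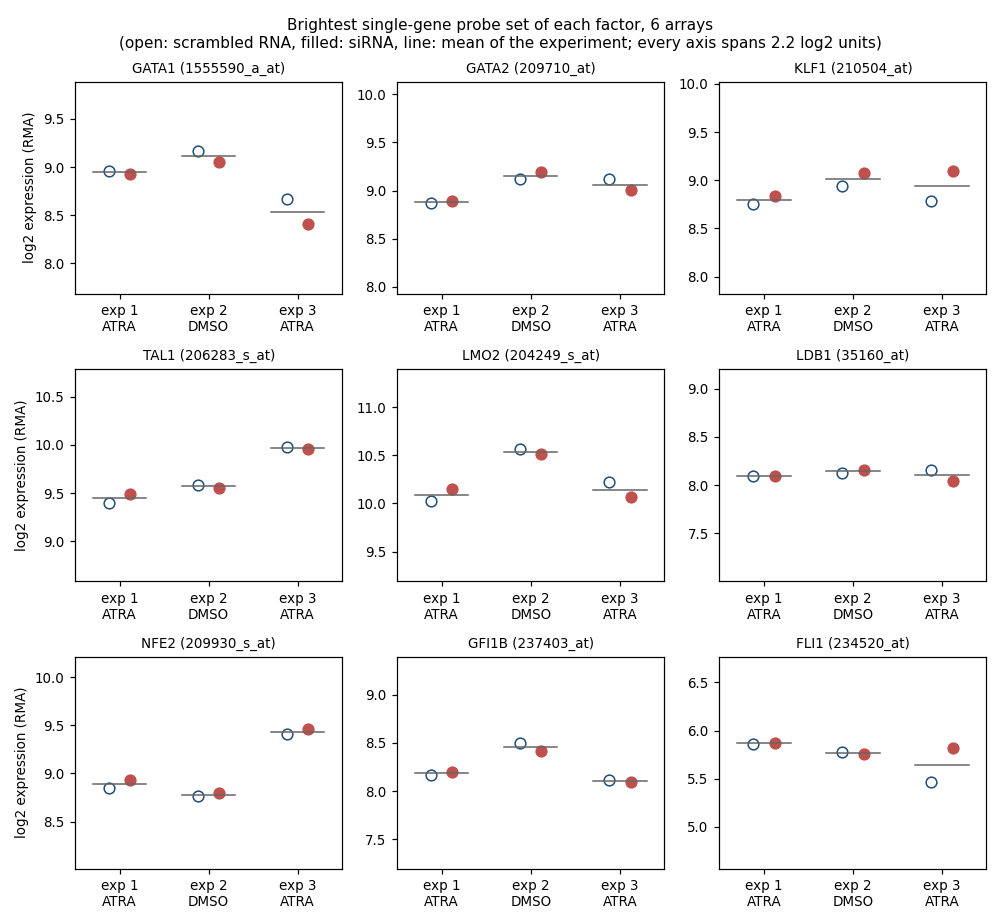
Log2 expression (vertical axis, 2.2 log2 units in every panel) of the brightest probe set of 1 gene for 9 factors, by experiment and treatment (horizontal axis). Open points are scrambled RNA arrays, filled points siRNA arrays, and lines the mean of the 2 arrays of an experiment. The LMO2 and GFI1B panels show the DMSO arrays above all 4 ATRA arrays, and the TAL1 and NFE2 panels show experiment 3 above the others. FLI1 was dim on every array.

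Whether ATRA moved the factors was asked by setting the 2 ATRA experiments against the DMSO experiment. No factor passed the test. On their brightest probe sets, LMO2 and GFI1B had lower signal in both ATRA experiments by like amounts. The other GFI1B probe set was lower by unequal amounts. GATA1, GATA2 and KLF1 were lower in both experiments by unequal amounts. NFE2 was higher in both, by unequal amounts. On experiment means (limma, Benjamini-Hochberg adjustment over 19775 genes, threshold 0.05), 0 of 19775 genes passed (0%), 235 had an unadjusted p under 0.05, and the adjusted p was 0.995 for each of the 9 factors. With 1 DMSO experiment the comparison had 1 residual degree of freedom, and treatment and experiment cannot be told apart.

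LMO2 differed from the DMSO experiment by -0.45 and -0.40 log2 units in experiments 1 and 3, leaving 73.2% and 75.9% of its signal (mean difference -0.42, SE 0.28, 95% interval -1.20 to 0.36, n = 2 and 1 experiments). Its second probe set, 231049_at, read 7.11 and 6.90 in the DMSO experiment and 6.04 to 6.52 under ATRA, or 60.5% and 53.9% of the signal. With every probe set tested, the difference of -0.81 on 231049_at had an unadjusted p of 0.0146 in limma and an adjusted p of 0.995. Both probe sets of LMO2 thus read lower under ATRA in both experiments, without passing the test. For GFI1B, 237403_at was 82.7% and 78.3% of the DMSO signal (difference -0.31, SE 0.24, 95% interval -0.99 to 0.37). The other GFI1B probe set, 208501_at, read 7.48 and 7.73 in the DMSO experiment, 7.10 on both arrays of experiment 1 and 6.06 and 5.94 in experiment 3. Its difference from DMSO was -0.51 in experiment 1 and -1.60 in experiment 3, so the size depended on the experiment. Its scrambled array of experiment 3 read below the median of all probe sets.

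GATA1 differed from DMSO by -0.17 and -0.57 log2 units on its brighter probe set (mean -0.37, SE 0.33) and by -0.18 and -1.26 on the other. The experiment 1 values of the 2 probe sets were close and the experiment 3 values were not. GATA2 differed by -0.27 and -0.09 (mean -0.18, SE 0.29) and KLF1 by -0.22 and -0.07 (mean -0.14, SE 0.28). NFE2 differed by 0.11 and 0.66 (mean 0.38, SE 0.37). TAL1 differed by -0.12 in experiment 1 and by 0.40 in experiment 3, and LDB1 by -0.05 and -0.04. For LMO2, GFI1B, GATA1, GATA2 and KLF1 the difference stayed below 0, and for NFE2 above 0, in the main fit and all 12 alternatives, while TAL1, LDB1 and FLI1 changed sign in at least 1.

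Over the 17 brighter probe sets of 1 gene, 10 had all 4 ATRA arrays below both DMSO arrays and 1, that of NFE2, had all 4 above. Among all 27381 probe sets at or above the median, 13.6% lay below in that way and 16.6% above. By gene, the 10 were both probe sets of GATA1, LMO2 and GFI1B, 2 of 3 of GATA2 and 2 of 4 of TAL1. The brightest TAL1 probe set, 206283_s_at, was not among the 10. On 1 probe set per gene, 4 of 9 factors lay below and 1 above, against 13.2% and 13.5% of all 19775 genes. GATA2 counted by a narrow margin, with its lower DMSO array at 9.1156 and its highest ATRA array at 9.1154. The factors were chosen with earlier results of these data known, so the shares are no test of them. These probe sets share arrays and in part transcripts and are not replicates. The median difference of the 9 factors was -0.14, with 2 higher and 7 lower, against -0.01 over all genes.

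**Figure D2:**
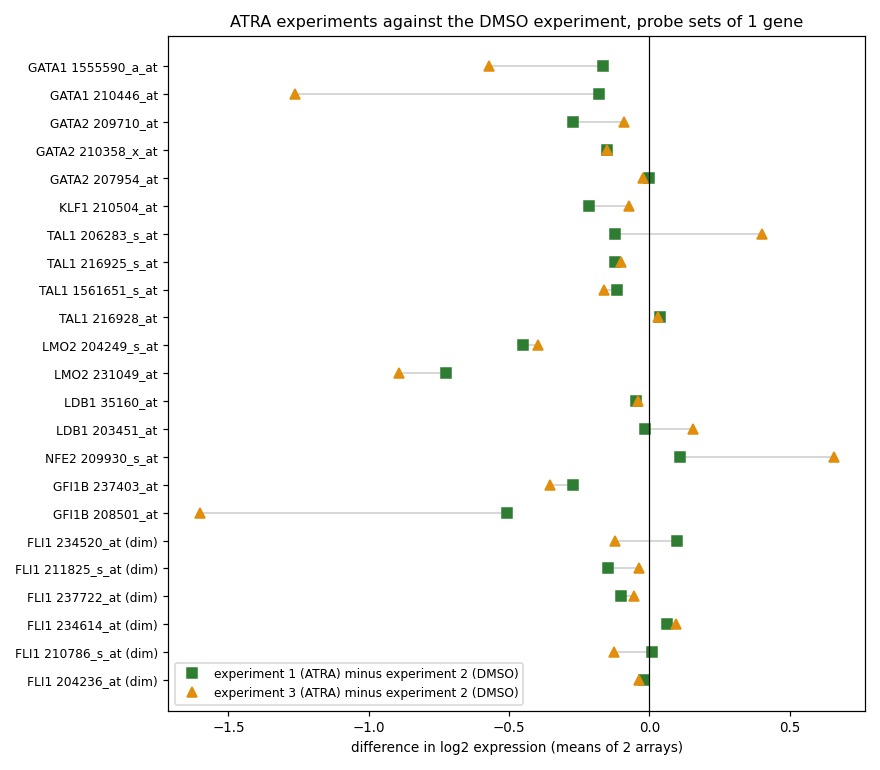
Difference in log2 expression (horizontal axis) of experiment 1 (squares) and experiment 3 (triangles) from the DMSO experiment, means of 2 arrays each, for the 23 probe sets of 1 gene (rows, dim ones marked). LMO2 lies left of 0 in both experiments on both probe sets, while for GATA1 210446_at and GFI1B 208501_at the experiment 3 value lies more than 1 log2 unit further left than that of experiment 1.

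The values turned on experiment 3. Without it, with the arrays of experiments 1 and 2 as replicates, 36 genes passed in limma (0.182%) and none of the 9 factors. The adjusted p was then 0.0900 for LMO2, 0.145 for GATA2, 0.157 for GFI1B, 0.262 for KLF1 and 0.281 for GATA1, each with an unadjusted p under 0.05. Of all 19775 genes, 2955 had an unadjusted p under 0.05 in that fit. Without experiment 1, 5788 genes passed (29.3%) and with them 5 factors, GATA1 at -0.57 (adjusted p = 0.00921), LMO2 at -0.40 (0.0106), GFI1B at -0.35 (0.0105), TAL1 at 0.40 (0.00409) and NFE2 at 0.66 (0.00113). LMO2 and GFI1B differed by close amounts in both fits, and TAL1 in opposite directions. In these fits each treatment is 1 experiment, so the p-values measure the spread between arrays within experiments.

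How far the factors vary between experiments of the same treatment was asked by setting experiment 3 against experiment 1, both under ATRA. The replicates are the siRNA and the scrambled array of an experiment. The p-values of this comparison, here and below, therefore measure the spread between arrays within experiments. GATA1 fell, and TAL1 and NFE2 rose, in experiment 3. In limma, GATA1 differed by -0.41 (SE 0.07, adjusted p = 0.00124), TAL1 by 0.52 (SE 0.06, adjusted p = 9.07e-05) and NFE2 by 0.55 (SE 0.06, adjusted p = 6.39e-05), with both arrays of experiment 3 on 1 side of both arrays of experiment 1 in each case. Beside these 3 of 9 factors, 32.7% of all genes passed. That share counts dim genes too, while 8 of the 9 factors were at or above the median. When only the 12875 genes at or above the median were tested, 6347 passed, with 3 factors among them. Over all genes 21% were called higher and 11.7% lower. The 6 other factors missed the threshold, with GATA2 nearest at 0.18 (adjusted p = 0.0714), KLF1 at 0.14 (0.178), FLI1 at -0.22 (0.143), GFI1B at -0.08 (0.464), LMO2 at 0.05 (0.660) and LDB1 at 0.01 (0.959). The larger actin and GAPDH gaps of experiment 3 moved with these differences, and their part in them was not tested.

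Probe sets of 1 factor did not move alike in this comparison. Whether this goes with the larger actin and GAPDH gaps of experiment 3 was not tested. With every probe set tested, 26.6% of 54613 passed in limma, and of the 23 probe sets of the factors 2 were higher and 3 lower in experiment 3. GATA1 210446_at fell by 1.08 log2 units (adjusted p = 1.2e-05), against 0.41 on the brighter probe set. GFI1B 208501_at fell by 1.09 (adjusted p = 1.08e-04), while 237403_at differed by -0.08. TAL1 206283_s_at rose by 0.52, while the 3 others differed by -0.05 to 0.02. The shared probe set 209360_s_at was the only called one of the 13 annotated to RUNX1 and 2 further genes, at 0.48 (adjusted p = 0.00106). Taken as the mean of a gene's probe sets, TAL1 lost its call (0.12, adjusted p = 0.165) and GFI1B gained one (-0.59, adjusted p = 4.90e-04).

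**Figure D3:**
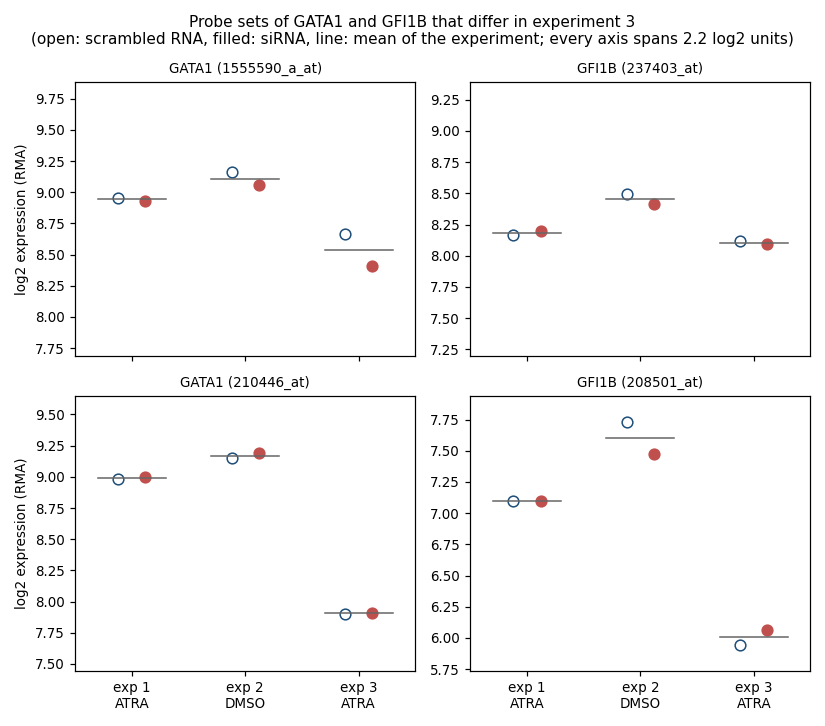
Log2 expression (vertical axis, 2.2 log2 units per panel) of both probe sets of GATA1 (left) and GFI1B (right) by experiment and treatment (horizontal axis). Open points are scrambled RNA arrays, filled points siRNA arrays, and lines the mean of the 2 arrays. The lower panels fall by 1.08 and 1.09 from experiment 1 to experiment 3, the upper ones differ by -0.41 and -0.08.

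Whether the siRNA moved the factors was asked over all 3 experiments, with treatment as a covariate. No factor passed, and the differences were small. The 9 factors lay between -0.13 (GATA1) and 0.18 (KLF1) log2 units, 4 higher and 5 lower, and the median size of the difference was 0.03 against 0.05 over all genes. In limma 0 of 19775 genes passed (0%), with 255 at an unadjusted p under 0.05, and the adjusted p was 1 for every factor. PRAME, lower with the siRNA in each experiment, did not pass this fit either. A difference larger than those of the factors could thus be missed. With the experiment as a replicate block 5 genes passed in limma (0.0253%), PRAME among them (adjusted p = 0.000997) and none of them a factor. With the block 1268 genes had an unadjusted p under 0.05.

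On the brightest probe set of each factor, KLF1 was furthest up. Its siRNA minus scrambled differences were 0.08, 0.13 and 0.31 in experiments 1, 2 and 3 (mean 0.18 ± 0.12, SD, n = 3). With the block its SE was 0.06, the 95% interval 0.04 to 0.31, the unadjusted p in limma 0.0144 and the adjusted p 0.771. Without the block, 3.18% of 12875 genes at or above the median had a larger difference in either direction. KLF1 was picked here as the furthest up of the factors, so this rank is no test of it. The KLF1 siRNA arrays read 9.0 ± 0.14 (SD, n = 3) and the scrambled arrays 8.83 ± 0.10. GATA1 was furthest down on its brighter probe set, by -0.03, -0.11 and -0.26 (mean -0.13 ± 0.12, SD, n = 3, adjusted p in limma 0.771 with the block). Its other probe set did not show this, with 0.01, 0.04 and 0.01. NFE2 differed by 0.09, 0.03 and 0.06, and its 95% interval was -0.06 to 0.17 with the block and -0.47 to 0.58 without it.

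For the scaffold and its partners the siRNA differences lay around 0 on the brightest probe sets. With the block, the mean difference was 0.00 for GATA2 (95% interval -0.13 to 0.13), 0.02 for TAL1 (-0.10 to 0.13), -0.03 for LMO2 (-0.16 to 0.10), -0.03 for LDB1 (-0.16 to 0.10) and -0.03 for GFI1B (-0.15 to 0.10). Without the block the intervals were wider, from -0.50 to 0.53 for TAL1 and from -0.29 to 0.29 for GATA2. The second LMO2 probe set, 231049_at, differed by 0.48, 0.21 and -0.09 in experiments 1, 2 and 3. Its mean of 0.20 was the highest of the 36 probe sets. With the block and every probe set tested, its adjusted p in limma was 0.872. The siRNA array was above the scrambled array in all 3 experiments for KLF1 and NFE2 and below it in all 3 for GATA1, against 13.1% and 11.9% of all genes.

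**Figure D4:**
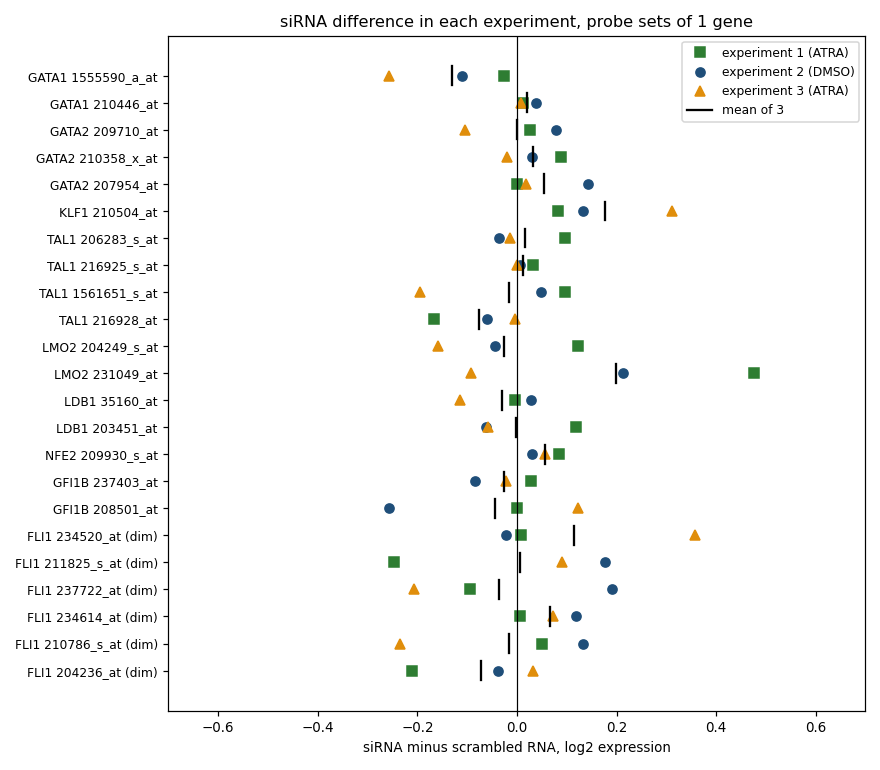
Difference in log2 expression between the siRNA and the scrambled RNA array (horizontal axis) in experiment 1 (squares), 2 (circles) and 3 (triangles) for the 23 probe sets of 1 gene (rows, dim ones marked), with the mean as a black bar. The mean of KLF1 is furthest right among the representing probe sets, at 0.18, and the 2 probe sets of GATA1 lie at -0.13 and 0.02.

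Whether the siRNA difference depended on ATRA was asked as the difference between its mean under ATRA and its value under DMSO. For the 9 factors it ran from -0.12 (GATA2) to 0.21 (FLI1, dim). It was -0.03 for GATA1, 0.07 for KLF1, 0.08 for TAL1, 0.03 for LMO2, -0.09 for LDB1, 0.04 for NFE2 and 0.09 for GFI1B. In limma 0 of 19775 genes passed (0%), 262 had an unadjusted p under 0.05, and the adjusted p was 1 for every factor. The SE of these values ran from 0.21 to 0.53 log2 units.

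The partners and cofactors of these factors were measured for 22 of 24 listed genes, all at or above the median. None passed in the siRNA, ATRA or interaction comparison. Against DMSO, 15 were higher and 7 lower under ATRA, with a median of 0.18 log2 units. TCF12, an E protein that pairs with TAL1, lay at 0.50, CBFB, the partner of RUNX1, at 0.34 and the histone deacetylase HDAC2 at 0.29. Most of these differences lay in experiment 3. In experiments 1 and 3, TCF12 differed by 0.10 and 0.89, CBFB by 0.05 and 0.62 and HDAC2 by 0.08 and 0.505. Of the 22 genes, 3 had all ATRA arrays above the DMSO arrays and 1 below, beside 13.5% and 13.2% of all genes. Between experiments 3 and 1, 13 were called higher and 5 lower, beside 6347 of 12875 genes called when only genes at or above the median were tested. LMO4, a LIM-only protein that binds LDB1, fell by 1.31 (limma, adjusted p = 3.30e-07) and MAFG, a small MAF partner of NFE2, by 1.05 (1.78e-06), while the corepressor CBFA2T3 rose by 1.05 (3.77e-06) and TCF12 by 0.79 (2.09e-05).

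Other transcription factors of these lineages were measured for 21 of 22 listed genes, of which 14 were higher and 7 lower under ATRA, with none past the test. All ATRA arrays were above the DMSO arrays for 7 of the 21 and below for 2, beside 13.5% and 13.2% of all genes. KLF3, a repressor at CACCC boxes, was higher by 0.33 and 0.80 and BACH1, a haem-sensing repressor at NFE2 sites, by 0.30 and 0.65 in experiments 1 and 3. In experiment 3 against experiment 1, 7 were called higher and 4 lower, beside 21% and 11.7% of all genes. Among them IKZF1 rose by 1.00 (adjusted p in limma 3.24e-06) and ZNF148 fell by 1.06 (7.21e-06).

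The target genes showed no passing call in the siRNA, ATRA or interaction comparison either. Of 26 measured erythroid targets of 36 listed, 10 were higher and 16 lower under ATRA, with a median of -0.03. ALAS2, the first enzyme of erythroid haem synthesis and a GATA1 target, lay -0.39 and -0.50 from DMSO in experiments 1 and 3 (unadjusted p in limma 0.0294, adjusted p 0.995), and HBZ at -0.33 on average. With the siRNA 9 were higher and 17 lower, with RHAG at 0.22, HBZ at -0.20 and HBB at -0.15. Of 22 measured megakaryocytic targets of 24 listed, 8 were higher and 14 lower under ATRA. The thrombin receptor F2R had the smallest p of the 14 listed genes at or above the median. It was higher by 0.33 and 0.51 in experiments 1 and 3 (unadjusted p in limma 0.159, adjusted p 0.995). THBS1, which encodes thrombospondin of platelet granules, differed by -0.38 and -2.82 and the tetraspanin CD9 by -0.19 and -1.02, with most of the difference in experiment 3. In that experiment THBS1 was in the dim range, at 5.40 with the siRNA and 4.82 with scrambled RNA.

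Of the factors of granulocytes, monocytes and lymphocytes, 17 of 19 were measured, 6 higher and 11 lower under ATRA with none past the test. KLF4, a factor of monocytes, was higher by 0.52 and 0.66 in experiments 1 and 3 (mean 0.59, unadjusted p in limma 0.0113, adjusted p 0.995). Erythroid targets had 7 called higher and 3 lower in experiment 3 against experiment 1, megakaryocytic targets 4 and 3, and the myeloid and lymphoid factors 2 and 3, of 26, 22 and 17 measured genes. Over all genes 32.7% were called, 21% higher and 11.7% lower. When only the 12875 genes at or above the median were tested, 4084 were called higher and 2263 lower. Whether these lists depart from such shares was not tested.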

How the data were processed

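Total RNA of 6 K562 samples (TRIzol purification and 3′ IVT Express labelling per the labels' protocols) was measured on Affymetrix U133 Plus 2.0 arrays. The deposited values are log2 expression, which the authors obtained by RMA in BRB-ArrayTools according to the series' design text; its version and settings are not given in the sources. Of 54675 probe sets, 62 were controls, 41091 were paired with 1 gene by the platform annotation, 1801 with several and 11721 were not listed. Of the genes, 19735 were matched to RefSeq and 0 symbols updated.

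Each of 19775 genes was represented by its probe set of highest mean. Genes were tested in R 4.3.3 with limma 3.58.1 (lmFit, eBayes with an intensity trend, Benjamini-Hochberg over all genes, threshold 0.05). Residual degrees of freedom were 3 for the siRNA, 1 for ATRA, 2 for the interaction and 2 for experiment 3 against experiment 1. Samples are paired by experiment number, since the labels name independent experiments. The deviations of same-numbered arrays from their group means had r of 0.679, 0.795 and 0.883. Same-numbered arrays also share their treatment, and both arrays of experiment 3 stood apart, so these r do not test the pairing. Scripts were tested on simulated data. Alternatives covered the probe set rule, dim genes, normalization, trend, block and left-out arrays.

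The members, the gene lists and the motifs were chosen with earlier results of these data known. Named were all factors, their probe sets of 1 gene, PRAME, list members with a level at or above the median by smallest p (up to 3 a comparison) or past the test, of which a selection is given, and per factor the 2 genes most alike. No build is named for the files, so the only coordinates given are those of the RefSeq promoters, in GRCh38.p14.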

Additional observations from a re-analysis of the deposited data

Results flagged for a closer look

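FLI1, dim throughout, had 1 of its 4 ATRA arrays far from the other 3. The scrambled array of experiment 3 read 5.46 and the others 5.82 to 5.87, so that the gap was 0.883 of the range, above Dixon's critical value for 4 values. Chance alone sets off about 1 in 20 such groups. For FLI1 the siRNA difference also had 1 sign in both ATRA experiments and the other in the DMSO experiment, and the mean under ATRA exceeded that under DMSO by 0.205 (SE 0.27, adjusted p = 1 in limma). The FLI1 differences were 0.008, -0.023 and 0.357 in experiments 1, 2 and 3, and the last includes the scrambled array that read 5.46. LDB1 showed the same kind of opposite signs, with a value of -0.087 (SE 0.21, adjusted p = 1 in limma). Its differences were -0.003, 0.028 and -0.115. The other LDB1 probe set, 203451_at, differed by 0.119, -0.063 and -0.058 and did not show this. Neither the FLI1 nor the LDB1 value passed the test.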

How the results depend on the processing

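The number of arrays limits the precision. Over all results and alternatives, 79 counts of calls stayed within 1.5 times the reported one, 398 values of single factors kept their direction and side of the threshold, and 40 values of uncalled factors changed sign. The cause was not tested. Over all genes, the siRNA comparison had 5 calls with the replicate block, 1 with the replicate block on every probe set (chosen after seeing the data), 0 to 2 without 1 replicate and 1 to 2 with the replicate block and without 1 replicate. The block changed no other call. ATRA against DMSO had 4 calls on all arrays with no replicate block, 2 with a random replicate block and 36 to 5788 without 1 replicate, with 0 to 5 factors among them. Testing every probe set, more features by construction, gave 14503 calls between experiments 3 and 1. There, GATA2 gained a call with centred arrays (0.22, adjusted p = 0.0313 in limma). Leaving an experiment out of the interaction, or 1 arm out of experiment 3 against 1, left no residual degrees of freedom.

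For the siRNA, the mean of a gene's probe sets gave 0.029 for GATA2, -0.016 for TAL1 and 0.086 for LMO2. Leaving out 1 array or 1 experiment, the values ran from -0.277 to 0.021 for GATA1, -0.06 to 0.082 for GATA2, -0.157 to 0.174 for TAL1, -0.102 to 0.039 for LMO2, -0.059 to 0.013 for LDB1, -0.107 to 0.213 for NFE2, -0.064 to 0.003 for GFI1B and -0.019 to 0.208 for FLI1. With the replicate block too, the signs that changed were 0.052 for GATA2, 0.039 for LMO2, 0.013 for LDB1 and -0.008 for FLI1 without experiment 3, -0.025 for TAL1 without experiment 1 and 0.003 for GFI1B without experiment 2. For ATRA, the mean of probe sets gave -0.02 for TAL1 and 0.013 for LDB1. Without 1 experiment, TAL1 ran from -0.125 to 0.399 and FLI1 from -0.123 to 0.099. FLI1 was at 0.009 with quantile normalization, 0.014 with centred arrays and 0.091 on siRNA arrays alone. For the interaction, the mean of probe sets gave -0.009 for TAL1, 0.003 for LDB1 and -0.124 for FLI1, and quantile normalization -0.012 for LMO2 and -0.015 for NFE2. Between experiments 3 and 1, LMO2 was at -0.056 by the mean of probe sets and LDB1 at -0.021 with quantile normalization.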

Other observations

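The genes most alike in pattern to each factor were those with the highest Pearson r over the 6 arrays, which share 3 experiments and are not independent. LMO2 was followed by CARD19 (r = 0.99) and NEK2-DT (0.982), GFI1B by BCAM (0.997), which encodes the Lutheran blood group antigen, and GPRC5C (0.988), GATA2 by CKB (0.995) and KLF13 (0.994), and KLF1 by ATXN7L3 (0.985) and CELF3 (0.983). GATA1 was followed by PSMB3 and YJU2B (0.997 each), TAL1 by LTBR and YDJC (0.999 each), LDB1 by PUF60 (0.978) and POLN (0.97), and FLI1, dim, by RBM27 (0.993) and SCFD1 (0.985). AP3D1 and PAPOLA were the closest to NFE2. Among the factors, GATA1 and NFE2 ran opposite (r = -0.957), and LMO2 with GFI1B (0.924) and TAL1 with NFE2 (0.92) ran alike.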
